A study of Mus musculus with 12 samples.

Results

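The effect of a guide against Sox2 was examined in cultured mouse colon fibroblasts that carried a Prkcz-/- genotype label. Libraries of cells with this guide, sgSox2, were set against libraries of cells with the control guide, sgScr, and every difference is Sox2 guide minus control guide. The comparison used 8 of the 12 libraries of the series, 4 for each guide, chosen by the guide and genotype in their labels, and 12676 of the 23106 genes in the table, those whose mean over all 12 libraries was 10 normalised reads or more. The tested gene nearest that threshold had a mean of 10.002 and the nearest gene below it 9.997. Both groups were of the C57BL/6 strain and 12 weeks old, and both carried the Prkcz-/- label, which is therefore shared and is not what is compared, although tags of Prkcz were read in both. Transcripts were counted by QuantSeq, in which each read marks the 3' end of a polyadenylated RNA. The 4 remaining libraries, labelled wild type with sgScr, entered the estimate of spread, and their values are given where they stand beside a result.

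Per the labels, cells were untreated and grown in medium with 10% fetal bovine serum. They were harvested 24 h after plating at about 80% confluency. The labels describe the Sox2-guide cells as a double knockout. They do not say whether the cells of a group were 1 clone or a pool, nor whether the 4 replicates, called biological by the submitters, were separate animals or cultures. The p-values therefore measure the spread between these libraries.

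SOX2 is a transcription factor with an HMG-box DNA-binding domain that sustains pluripotent, neural and epithelial progenitor cells and is usually silent in adult mesenchyme. The product of Prkcz, protein kinase C zeta, is one of the atypical kinases of its family and acts in cell polarity and in signalling through NF-kappaB. Fibroblasts build and remodel the extracellular matrix, and in the gut they also supply Wnt and BMP signals and their antagonists to the epithelium. Sfrp1 and Sfrp2, named in the title of the series, encode secreted frizzled-related proteins, which bind Wnt ligands outside the cell.

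Values are normalised reads, scaled by the authors so that each library sums to 10000000, and a value is comparable between libraries but not between genes of different length or tag. The 8 libraries held 2.67 to 5.20 M reads. Sox2-guide replicate 1 stood apart from the other libraries of its group. Mitochondrial transcripts took 4.29% of its reads, against 9.39 to 10.3% in the other 3 Sox2-guide libraries and 10.5 to 11.6% in the control-guide libraries. Its read counts differed from those of the other 3 with chi-square values, per degree of freedom, of 27.2 to 30.7, against 2.38 to 5.27 among those 3. The biological coefficient of variation was 16.1% in the Sox2-guide group, 9.34% in that group without this library, and 8.05% in the control-guide group. On the first principal component, with 79.8% of the variance of the 8 libraries, all 4 Sox2-guide libraries lay on the opposite side from the 4 control-guide libraries, and replicate 1 stood off along the second, with 6.03%. Ribosomal protein transcripts took 4.61 ± 0.746% of reads in Sox2-guide and 2.27 ± 0.108% in control-guide libraries, and the nuclear RNA Malat1 took 0.505 ± 0.127% in Sox2-guide and 1.42 ± 0.0602% in control-guide libraries (SD, n = 4 each).

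The labelled cell type was checked against some of its listed markers, of which Col1a2 and Vim were chosen after their values were seen. Col3a1, Pdgfrb, Dcn, Lum and Pdpn were listed as well, and their values are not given here. Col1a2, a chain of type I collagen, had 17306 ± 3064 normalised reads in Sox2-guide and 16296 ± 1328 in control-guide libraries (SD, n = 4 each; limma adjusted p = 0.6, and 0.031 without Sox2-guide replicate 1). Vim, the intermediate filament vimentin, had 21466 ± 1546 in Sox2-guide and 14820 ± 1098 in control-guide libraries. Thy1, a surface glycoprotein of many fibroblasts, was at 1.92, 0, 0 and 0 normalised reads in the 4 Sox2-guide libraries, 1 read in all, against 146, 140.0, 141 and 155 in the control-guide libraries. Pdgfra, the platelet-derived growth factor receptor that marks most gut fibroblasts, was at 42.3, 35.6, 48.7 and 37.0 in Sox2-guide and 1708, 1648, 1330.0 and 1107 in control-guide libraries. Col1a1, the other chain of type I collagen, was at 14137, 10182, 10733 and 10926 in Sox2-guide and 54855, 56255, 56947 and 61467 in control-guide libraries (log2 change -2.33 ± 0.10, limma adjusted p = 6.3e-12). So transcripts of Col1a2 and Vim were abundant in both groups, and those of Col1a1 were abundant but lower in Sox2-guide libraries. Of the surface markers, Thy1 was nearly lacking in Sox2-guide libraries, and Pdgfra was much lower there but present in each library. The groups did not overlap for Col1a1, Thy1 or Pdgfra. In bulk RNA, fewer cells of a type and less RNA per cell cannot be told apart.

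Sox2 (ENSMUSG00000074637, chromosome 3, 34650405 to 34652461, GRCm38) was not detected with its guide. It had 0 reads in each of the 4 Sox2-guide libraries, against 1293, 1306, 1330.0 and 1459 normalised reads in the control-guide libraries, which is 1960 reads. The level was at least 737-fold lower, taking 3 reads over the group as the floor, and the groups did not overlap (exact two-sided permutation test, p = 0.0286, the smallest that 4 against 4 libraries allow, and the same after adjustment over 4 genes). The WT-labelled libraries had 1.72 ± 2.00 normalised reads, so a near absence of reads also occurred without this guide. Sox2ot, a noncoding RNA whose span contains Sox2 on the same strand, likewise had 0 reads in Sox2-guide and 22.4, 26.2, 50.1 and 58.2 normalised reads in control-guide libraries, at least 21.5-fold lower. Their reads cannot be told apart where they overlap.

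Of the 8 tested genes within 1 Mb of Sox2, itself included, 5 were called lower and 3 were not called, where 50.1% of all tested genes of chromosome 3 were called lower. Ccdc39, a ciliary assembly gene, was at 28.8, 28.9, 60.0 and 34.6 in Sox2-guide and 183, 189.5, 213 and 168 in control-guide libraries (log2 change -2.34 ± 0.27, SE; limma with Benjamini-Hochberg adjustment, adjusted p = 1.3e-06). Ttc14 and Fxr1 were lower by less, with log2 changes of -0.60 ± 0.10 and -0.38 ± 0.13 and limma adjusted p of 8.8e-05 and 0.015. Dnajc19, an import factor of the mitochondrial inner membrane, had 360.2 ± 46.5 normalised reads in Sox2-guide and 339 ± 42.8 in control-guide libraries (SD, n = 4 each) and was not called (limma adjusted p = 0.57).

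Prkcz (ENSMUSG00000029053, chromosome 4, 155260129 to 155361361) gave 3' tags in both groups despite their label. It was at 30.8, 28.9, 52.5 and 27.2 normalised reads in the Sox2-guide libraries, 54 reads in all, against 26.4, 23.3, 9.39 and 25.9 in the control-guide libraries, 32 reads. The WT-labelled libraries had 0 reads. The groups of the comparison did not overlap (mean log2 difference 0.74; exact two-sided permutation test, p = 0.0286, and 0.114 without Sox2-guide replicate 1, where 0.0571 is the smallest possible), while limma did not call the difference (adjusted p = 0.16). Tags from the 3' end do not check a knockout when another stretch of the gene was removed, and which stretch was removed is not stated in the labels. The libraries are therefore described by their labels.

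Sfrp1 (ENSMUSG00000031548, chromosome 8, 23411502 to 23449632) fell to 61.5, 60.1, 86.2 and 71.6 normalised reads in Sox2-guide libraries, against 15451, 15679, 15497 and 16244 in control-guide libraries. Every Sox2-guide library was below every control-guide library by more than 2 orders of magnitude (log2 change -7.81 ± 0.24, limma adjusted p = 1.7e-13). Sfrp2 (ENSMUSG00000027996, chromosome 3, 83766321 to 83774316) was at 90.4, 89.0, 63.7 and 64.2 in Sox2-guide and 309, 271, 259.8 and 249 in control-guide libraries, a log2 change of -1.83 ± 0.22 (limma adjusted p = 1.9e-06). Both had an exact permutation p of 0.0286. The title of the series names both, so their direction is not independent evidence.

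**Figure D1:**
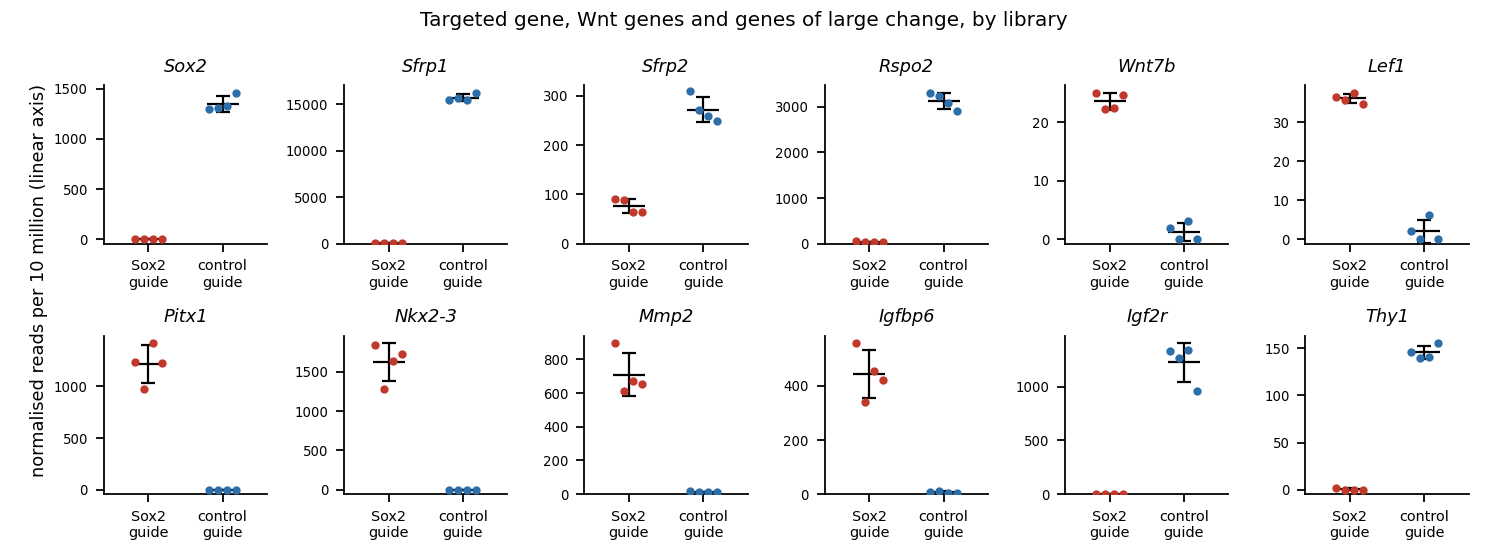
Normalised reads (linear axes, each from about 0) of 12 genes in the 4 Sox2-guide libraries (left, red) and the 4 control-guide libraries (right, blue); points are libraries, the long dash is the mean and the bars are the SD. Sox2, Sfrp1, Sfrp2, Rspo2, Igf2r and Thy1 were lower and Wnt7b, Lef1, Pitx1, Nkx2-3, Mmp2 and Igfbp6 higher with the Sox2 guide, and the groups did not overlap for any of the 12. Apart from Sox2, Sfrp1 and Sfrp2 they were picked from called genes, and 53.6% of all tested genes lacked overlap. The lack of overlap is therefore not a further result.

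Most measured transcripts differed with the guide. By limma with Benjamini-Hochberg adjustment, 7689 of the 12676 tested genes were called at an adjusted p under 0.05, which is 60.7%, with 3866 higher (30.5%) and 3823 lower (30.2%) in Sox2-guide libraries. The groups did not overlap for 53.6% of tested genes. The balance of the counts moved with the scaling, to 4271 higher and 3445 lower with quantile scaling and to 3616 higher and 4095 lower without mitochondrial genes and Gm42418, a predicted gene with many reads. By size, beyond 8-fold, 176 genes were called higher and 511 lower, and beyond 16-fold, 89 higher and 306 lower. No read was seen in any Sox2-guide library for 70 genes called lower, and in any control-guide library for 43 genes called higher. Among the 2544 genes with a mean between 10 and 50 normalised reads, 397 were called higher and 864 lower. Among the 2173 genes at 1000 or above the order turned, with 1041 higher and 589 lower. Over all tested genes the median log2 change was -0.01, beside which the medians of gene lists are to be read, as their counts are beside the shares of 30.5% higher and 30.2% lower, and without Sox2-guide replicate 1, 7816 genes were called. Without that library the counts of 30 of the 53 gene lists described below moved, by 1 or 2 genes each.

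**Figure D2:**
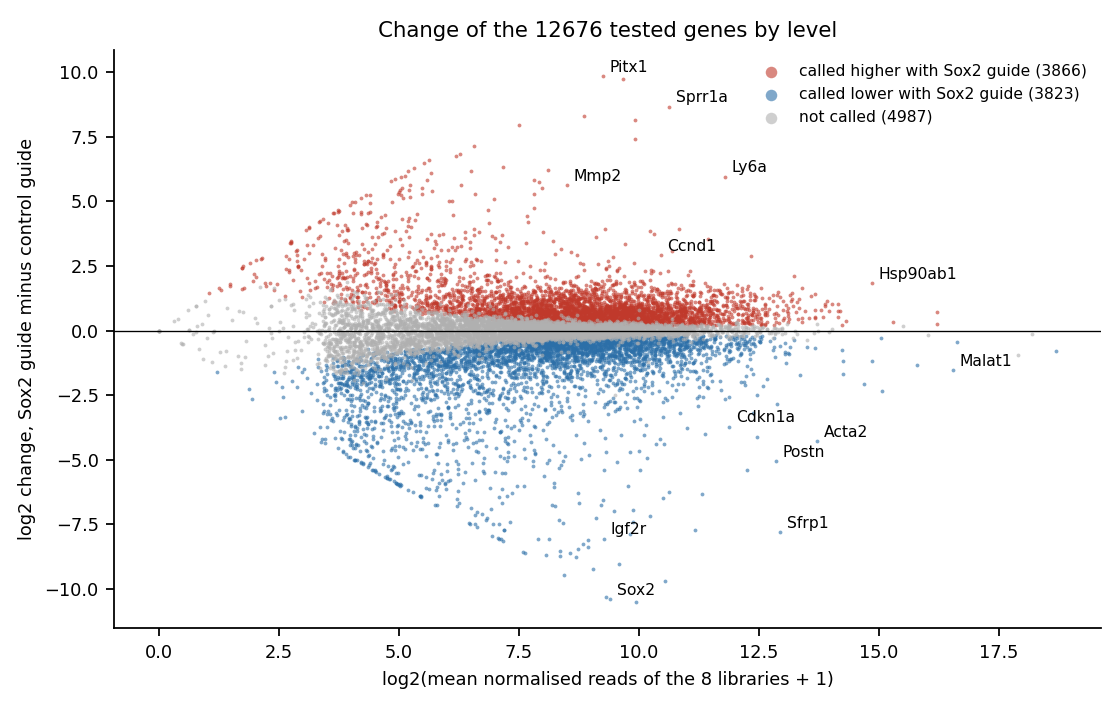
Log2 change (Sox2 guide minus control guide, on log2 of value plus 1) of each tested gene against the log2 mean of the 8 libraries; red and blue points were called higher and lower by limma and grey points were not called. The points below 0 reach further from the line than those above, 511 against 176 genes beyond 8-fold.

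The 12 largest log2 increases were of genes with several roles. Pitx1, a homeobox factor of hindlimb identity, was at 1238, 970.3, 1417 and 1225 normalised reads in Sox2-guide libraries and at 1 read over the 4 control-guide libraries (limma adjusted p = 1e-13). Nkx2-3, a homeobox factor of gut mesenchyme, was at 1838, 1282, 1638 and 1729 in Sox2-guide and 2.03, 0, 3.13 and 0 in control-guide libraries. Both were thus near 0 in every control-guide library and at 970.3 normalised reads or more in every Sox2-guide library. Sprr1a, a small proline-rich protein of the cornified envelope of stratified epithelia, was at 3851, 2744, 2960.5 and 3154 in Sox2-guide and 6.10, 5.83, 6.26 and 9.71 in control-guide libraries. Lor, loricrin of the same envelope, was at 183, 145, 139 and 138 in Sox2-guide libraries, against 2.03, 0, 0 and 0 in control-guide libraries. Il33, an alarmin cytokine held in the nuclei of stromal and epithelial cells, reached 159.6, 151, 105 and 158 in Sox2-guide libraries, against 2.03, 0, 0 and 0 in control-guide libraries. Satb1, a chromatin organiser first known in thymocytes, was at 281 ± 32.7 with the Sox2 guide and 3.57 ± 3.37 with the control guide. Xdh, xanthine dehydrogenase of purine breakdown, was at 546 ± 67.1 in Sox2-guide and 6.87 ± 2.81 in control-guide libraries. Itgb7, an integrin chain of gut-homing lymphocytes, was at 177 ± 17.7 in Sox2-guide and 2.82 ± 3.84 in control-guide libraries (SD, n = 4 each). Asb5, an ankyrin repeat protein with a SOCS box, was at 921 ± 162 in Sox2-guide and 3.87 ± 4.67 in control-guide libraries. These genes were chosen among those called and without overlap between the groups, so neither is a further result.

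The 12 deepest log2 decreases, chosen in the same way, were likewise of genes with several roles. Limch1, an actin and myosin regulator, had 0 reads in Sox2-guide and 1325, 1181, 1346 and 1210.2 normalised reads in control-guide libraries, at least 692-fold lower. Lmod1, leiomodin of smooth muscle, had 2 reads in 1 Sox2-guide library and 0 in the other 3, against 685, 656, 629 and 647 normalised reads with the control guide (limma adjusted p = 2.5e-08). St8sia2, which makes polysialic acid on neural adhesion molecules, was at 1.92, 0, 0 and 0 in Sox2-guide and 465, 574, 473 and 634 in control-guide libraries. Cadm1, an immunoglobulin-type adhesion molecule, was at 1.92, 0, 3.75 and 0 in Sox2-guide and 774, 755, 757 and 715 in control-guide libraries. Rps4l, a relative of ribosomal protein S4, had 0 reads with the Sox2 guide and 396 ± 34.9 normalised reads with the control guide (SD, n = 4), at least 216-fold lower. Igsf10, Kctd15, Hoxc8 and Lama4 were also among the 12 deepest decreases, each with at most 8.90 normalised reads in any Sox2-guide library.

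Because SOX2 binds DNA through a short motif, the windows from 250 bases before to 50 bases after the annotated start of each gene (RefSeq, GRCm38.p6) were searched on both strands for AACAATG and AACAAAG, which do not overlap each other. Of 27025 windows 2532 held a match, or 9.37%. Only 9349 of the 12676 tested genes, 73.8%, had a window, too few for a valid check, so the shares with a match, 4.47% of windows of genes called higher, 5.09% of those called lower and 5.95% of those not called, are void as a comparison. Of the 27 genes named for the design or as largest changes 17 had a window, and 0 of these held a match, which says only that these letters are not in that window. The windows below are those of the 2 largest decreases and 2 largest increases among called genes that held a match, printed to show where it lies, with the match or its reverse complement in capitals.
Itga8 (chr2:12301895-12302194, minus strand): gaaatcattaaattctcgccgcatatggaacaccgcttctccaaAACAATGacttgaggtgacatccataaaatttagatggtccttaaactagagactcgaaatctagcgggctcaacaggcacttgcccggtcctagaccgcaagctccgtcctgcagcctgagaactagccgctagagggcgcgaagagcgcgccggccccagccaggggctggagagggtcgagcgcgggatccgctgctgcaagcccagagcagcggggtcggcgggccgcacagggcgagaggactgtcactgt
Hmcn1 (chr1:150993386-150993685, minus strand): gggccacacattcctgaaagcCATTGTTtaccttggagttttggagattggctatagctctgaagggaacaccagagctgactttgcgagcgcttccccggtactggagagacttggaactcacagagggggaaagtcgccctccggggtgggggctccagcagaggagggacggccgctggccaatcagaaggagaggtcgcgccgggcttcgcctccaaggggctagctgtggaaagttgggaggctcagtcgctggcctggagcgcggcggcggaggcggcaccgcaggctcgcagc
Ccl8 (chr11:82114935-82115234, plus strand): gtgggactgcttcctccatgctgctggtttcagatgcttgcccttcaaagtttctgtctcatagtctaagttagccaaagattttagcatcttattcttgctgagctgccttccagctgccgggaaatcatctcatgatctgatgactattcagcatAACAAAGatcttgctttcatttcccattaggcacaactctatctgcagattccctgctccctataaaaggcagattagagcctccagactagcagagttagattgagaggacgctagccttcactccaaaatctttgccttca
Elavl4 (chr4:110351862-110352161, minus strand): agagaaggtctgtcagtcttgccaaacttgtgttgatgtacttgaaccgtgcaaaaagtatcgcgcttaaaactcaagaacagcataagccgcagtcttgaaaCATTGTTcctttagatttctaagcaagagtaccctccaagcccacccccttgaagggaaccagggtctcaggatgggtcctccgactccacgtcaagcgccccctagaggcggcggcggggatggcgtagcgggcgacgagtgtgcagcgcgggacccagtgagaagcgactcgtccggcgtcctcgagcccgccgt
Itga8, an integrin chain of mesenchymal and smooth muscle cells, was at 0.617 ± 1.23 normalised reads in Sox2-guide and 223 ± 28.2 in control-guide libraries. Hmcn1, the matrix protein hemicentin, was at 3.28 ± 2.24 in Sox2-guide and 299 ± 19.4 in control-guide libraries. Ccl8, a monocyte attractant, was at 48.1, 24.5, 37.5 and 27.2 in Sox2-guide and 0, 0, 0 and 3.24 in control-guide libraries. Elavl4, a neuronal RNA-binding protein, was at 55.8, 73.4, 109 and 74.1 in Sox2-guide and 2.03, 0, 9.39 and 3.24 in control-guide libraries. Each window held 1 match. A match is a description of these letters and not a site of binding.

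By absolute reads, transcripts of chaperones and of nucleolar proteins were among the 8 largest gains. Hsp90ab1, a cytosolic HSP90, was at 58115, 39558, 44359 and 44671 normalised reads in Sox2-guide and 12221, 12515, 11967 and 15526 in control-guide libraries, and its inducible relative Hsp90aa1 at 18166, 13718, 15174 and 15212 in Sox2-guide and 3433, 3458, 3461 and 3945 in control-guide libraries. Ncl, nucleolin, was at 22208, 26579, 25048 and 24095 in Sox2-guide and 11771, 11847, 11880 and 12300 in control-guide libraries. Npm1, nucleophosmin, was at 19547, 18409, 18093 and 19872 in Sox2-guide and 7261, 7083, 7248 and 7203 in control-guide libraries. For these 4 genes the lowest Sox2-guide library was at least 1.5 times the highest control-guide library. Malat1 lost most among nuclear-encoded genes, at 50550 ± 12656 in Sox2-guide and 141930 ± 6019 in control-guide libraries, with a log2 change of -1.53 ± 0.16. It is an abundant nuclear noncoding RNA, and its share of reads was lower where that of ribosomal protein transcripts was higher. The part of these shares in other changes was not tested.

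Among SOX family genes, 19 were listed and 7 were tested: 2 were called higher, 2 lower and 3 were not called (median log2 change -0.19). Sox11, a SoxC factor of neural and mesenchymal progenitors, was at 1102, 895, 993 and 1008 normalised reads in Sox2-guide and 2746, 2712, 2964 and 2802 in control-guide libraries (log2 change -1.49 ± 0.10, limma adjusted p = 1.5e-09). Sox4, of the same subgroup, was at 5516, 4584, 3583 and 3784 in Sox2-guide and 4653, 4566, 4406 and 4368 in control-guide libraries, and the groups overlapped (limma adjusted p = 0.63, and 0.036 without Sox2-guide replicate 1). Sox9, a regulator of chondrocytes and of epithelial stem cells, was at 790.2, 750.0, 678 and 696 in Sox2-guide and 599.6, 569, 582 and 449.8 in control-guide libraries, a log2 change of 0.41 ± 0.11 (limma adjusted p = 0.004). Sox13 was near the detection limit with the control guide, at 2.24 ± 2.81, and at 42.2 ± 12.8 with the Sox2 guide (SD, n = 4 each). Sox5 and Sox12 had 43.5 ± 12.0 and 210.4 ± 35.8 normalised reads in Sox2-guide libraries, and 59.4 ± 14.6 and 241 ± 46.6 in control-guide libraries. Of 24 listed pluripotency and neural progenitor genes 4 were tested, of which Pou3f1, Hmga2 and Nes were called higher and Klf4 lower. The call of Nes was lost in edgeR, with an adjusted p of 0.071, and in DESeq2, with 0.069. Pou3f1, a POU-domain factor, was at 63.4, 64.5, 60.0 and 81.5 in Sox2-guide and 2.03, 8.75, 3.13 and 6.47 in control-guide libraries. Klf4, a Krüppel-like factor, was at 296, 369, 536 and 610.0 in Sox2-guide and 1006, 901, 1086 and 1285 in control-guide libraries.

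Most secreted Wnt antagonists and most Wnt ligands and R-spondins fell. Of 6 tested antagonists, Sfrp1 and Sfrp2 included, 1 was called higher and 5 lower, with a median log2 change of -3.38, and of 7 Wnt ligands and R-spondins 1 was called higher and 6 lower, with a median of -3.24, or -0.45 over the ligands whose mean was 50 normalised reads or more. Dkk3, a secreted relative of the Dickkopf proteins, was at 0, 4.45, 7.495 and 2.47 in Sox2-guide and 2947, 3015, 2788 and 3126 in control-guide libraries. Kremen1, a membrane receptor of Dickkopf proteins and not itself secreted, was the 1 called higher. That call was lost in DESeq2 (adjusted p = 0.053) and without Sox2-guide replicate 1 (limma adjusted p = 0.066). It was also lost under several other alternatives. Igfbp4, an IGF-binding protein that also binds frizzled receptors, was at 63.4, 82.3, 78.7 and 64.2 in Sox2-guide and 2478, 2155, 2203 and 2071 in control-guide libraries (log2 change -4.93 ± 0.11, limma adjusted p = 3.7e-15). Rspo2, a secreted R-spondin that raises the cell-surface level of Wnt receptors, was at 53.8, 40.1, 33.7 and 37.0 in Sox2-guide and 3299, 3225, 3073 and 2909 in control-guide libraries (log2 change -6.23 ± 0.49, limma adjusted p = 1.5e-08). Its relative Rspo3 was low in both groups, at 0.937 ± 1.87 in Sox2-guide and 19.6 ± 7.41 in control-guide libraries (SD, n = 4 each). Wnt7b, a Wnt ligand best known from epithelia, was the only ligand called higher, at 24.99, 22.3, 22.5 and 24.7 in Sox2-guide and 2.03, 0, 3.13 and 0 in control-guide libraries.

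Of 6 tested genes that are transcribed in response to beta-catenin, 4 were called higher and 1 lower, with a median log2 change of 1.07. Ccnd1, cyclin D1, was at 2551, 2791, 2308 and 2279.6 in Sox2-guide and 380.1, 312, 309.8 and 314 in control-guide libraries. Lef1, a DNA-binding partner of beta-catenin, was at 36.5, 35.6, 37.5 and 34.6 in Sox2-guide and 2.03, 0, 6.26 and 0 in control-guide libraries. Znrf3, a ubiquitin ligase that removes Wnt receptors, was at 116 ± 27.0 in Sox2-guide and 55.0 ± 13.1 in control-guide libraries (SD, n = 4 each). Axin2, the feedback inhibitor most often read as a Wnt target, was called lower at a level of a few reads, 1.92, 4.45, 7.495 and 0 in Sox2-guide and 14.2, 11.7, 12.5 and 3.24 in control-guide libraries, and the groups overlapped (limma adjusted p = 0.032). Without Sox2-guide replicate 1 Axin2 was no longer called (adjusted p = 0.057 by limma), and without replicate 4 its p was 0.116, so that 4 of the 6 were then called higher and 0 lower.

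**Figure D3:**
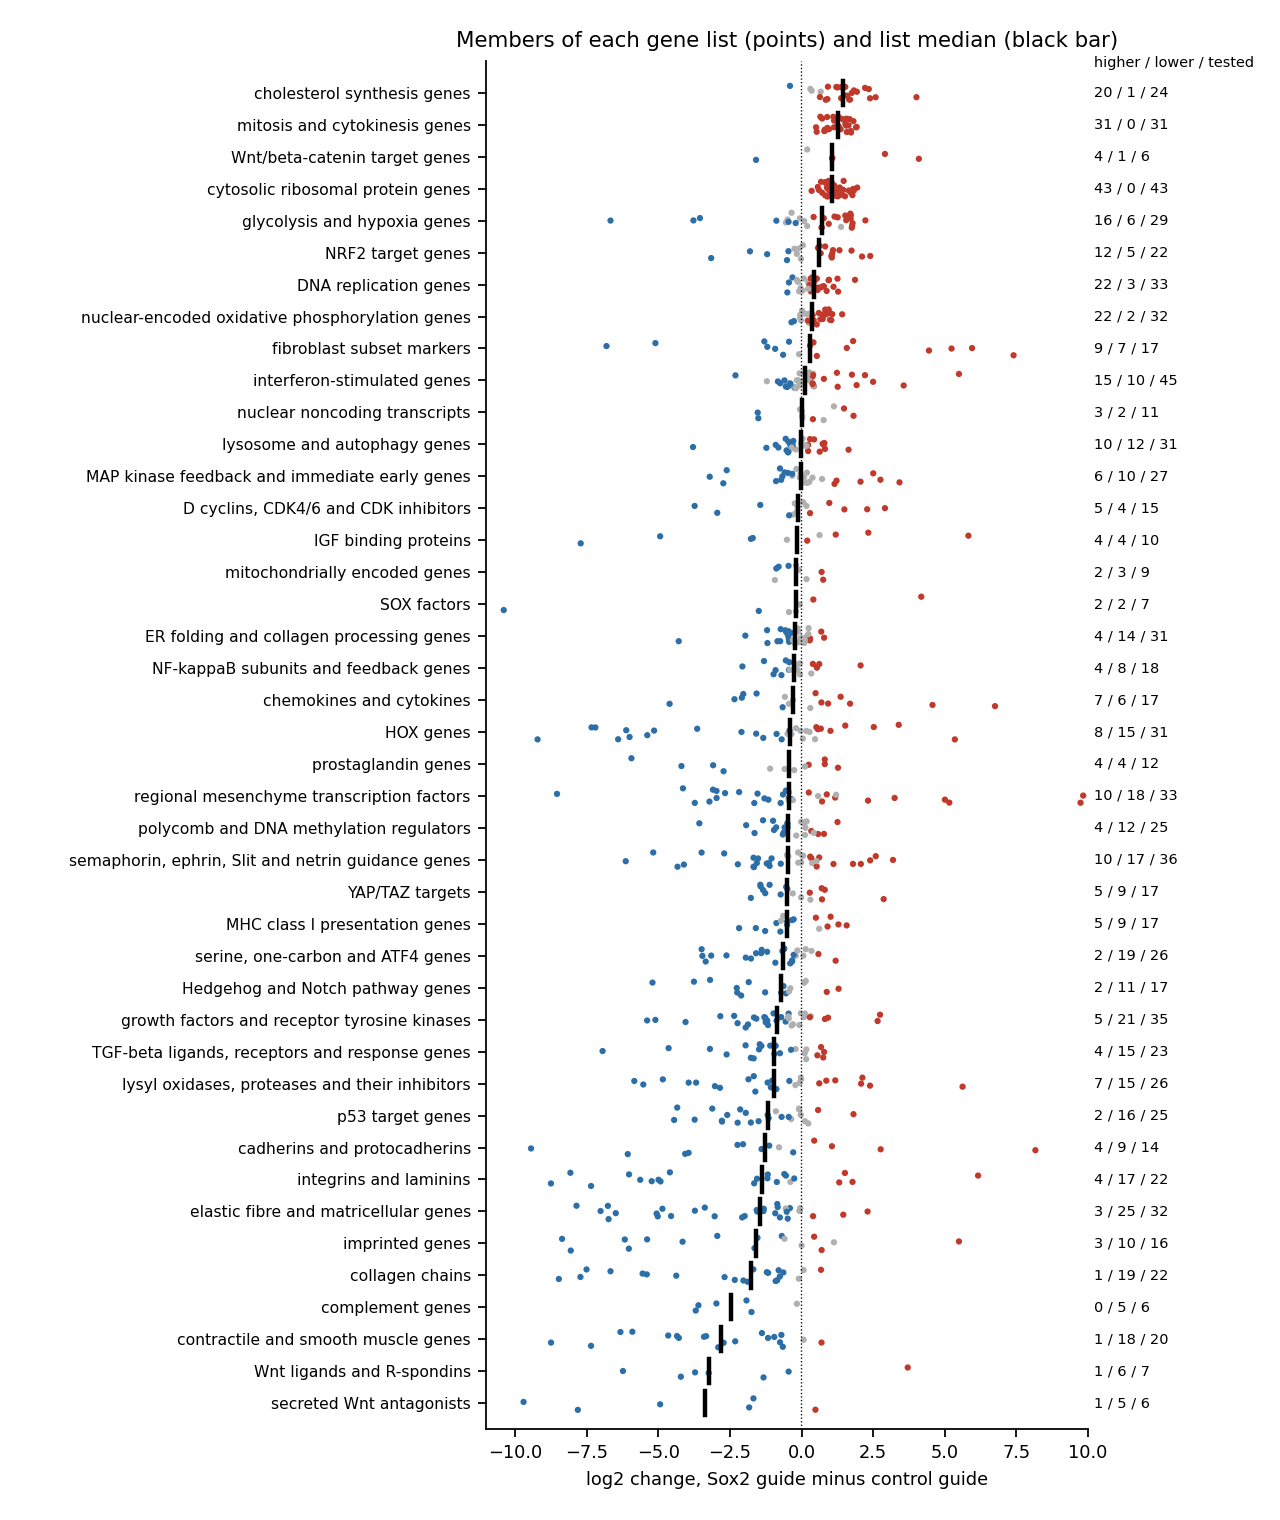
Log2 change (Sox2 guide minus control guide) of the tested members of each gene list with at least 5 of them, lists of other cell types left out; red and blue points were called higher and lower, grey points were not called, black bars are list medians and the dotted line is the median of all tested genes. Lists run from the highest to the lowest median, 1.45 for cholesterol synthesis to -3.38 for secreted Wnt antagonists, with the counts called higher, called lower and tested at the right.

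Most collagen chains, other matrix proteins and matrix enzymes were called lower. Of 22 collagen chains 1 was called higher and 19 lower (median log2 change -1.78). Col11a1, a fibrillar chain of cartilage, was at 1.92, 2.23, 0 and 2.47 in Sox2-guide and 852, 816, 811 and 916 in control-guide libraries. The glycoproteins Sparc and Fn1, fibronectin, were among the 8 largest losses in reads, with Sparc at 36360, 26597, 35485 and 31994 in Sox2-guide and 71269, 84641, 78613 and 89267 in control-guide libraries. Fn1 was at 11918, 9356, 9241 and 10225 in Sox2-guide and 42534, 41201, 43206 and 43530 in control-guide libraries. Col6a2, of the microfibrillar type VI collagen, was at 159.6, 114, 109 and 106 in Sox2-guide and 2510.4, 2423, 2366 and 2764 in control-guide libraries. Col5a3 was the 1 chain called higher, at 385 ± 60.6 in Sox2-guide and 241 ± 41.5 in control-guide libraries (SD, n = 4 each). Of 32 elastic fibre and matricellular genes 3 were called higher and 25 lower (median -1.44), and Spp1, osteopontin, was the largest exception, at 2013, 1687, 1855 and 1857 in Sox2-guide and 388, 394, 341 and 372 in control-guide libraries. Of 26 lysyl oxidases, proteases and inhibitors 7 were called higher and 15 lower (median -0.95). Lox, the enzyme that crosslinks collagen and elastin, was at 1946, 1694, 1870.0 and 1855 with the Sox2 guide and 12664, 13842, 12887 and 13620 with the control guide. Mmp2, a secreted gelatinase, moved the other way, at 896, 612, 671 and 654 in Sox2-guide and 16.3, 11.7, 12.5 and 12.9 in control-guide libraries (log2 change 5.62 ± 0.19, limma adjusted p = 3.9e-13). The tissue inhibitors split, with Timp1 higher by a log2 change of 2.12 ± 0.10 and Timp2 and Timp3 lower, at -1.18 ± 0.09 and -1.67 ± 0.09.

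Of 20 contractile and smooth muscle genes 1 was called higher and 18 lower, with a median log2 change of -2.81. Myl9, a myosin light chain, was at 104, 51.2, 33.7 and 79.0 in Sox2-guide and 4775, 4679.9, 4700.5 and 5919 in control-guide libraries (log2 change -6.32 ± 0.24, limma adjusted p = 1.3e-12). Acta2, smooth muscle actin, was at 1782, 1375, 1019 and 1183 in Sox2-guide and 26057, 26076, 26335 and 23742 in control-guide libraries. Tpm2, a tropomyosin, was lower by less, at 2717 ± 157 in Sox2-guide and 7078 ± 283 in control-guide libraries. Smtn, smoothelin, was the 1 gene called higher, at 292 ± 39.2 in Sox2-guide and 182 ± 39.2 in control-guide libraries (SD, n = 4 each). Of 22 integrin and laminin chains 4 were called higher and 17 lower (median -1.37). The laminin chains Lama4, Lama2 and Lama5 were all lower, Lama2 at 7.69, 4.45, 3.75 and 2.47 in Sox2-guide and 368, 341, 363 and 301 in control-guide libraries. The laminin receptor chain Itga6 was higher, at 629, 757, 817 and 748 in Sox2-guide and 236, 189.5, 238 and 194 in control-guide libraries. Itga3, another laminin receptor chain, was at 2157, 1742, 2046 and 2117 in Sox2-guide and 624, 688, 719.8 and 786 in control-guide libraries. Of 14 cadherins and protocadherins 4 were called higher and 9 lower (median -1.26). Cdh13, a cadherin anchored by lipid, had 0 reads with the Sox2 guide and 696 ± 57.6 normalised reads with the control guide (SD, n = 4), at least 381-fold lower. Fat4 and Dchs1, the giant cadherins that bind each other, both fell, with log2 changes of -6.06 ± 0.30 and -3.94 ± 0.26. Pcdh17, a protocadherin, was among the largest increases, at 1916 ± 266 in Sox2-guide and 6.76 ± 5.39 in control-guide libraries.

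Ligands, receptors and intracellular brakes of growth factor pathways did not move as one. Of 35 growth factors and receptor tyrosine kinases 5 were called higher and 21 lower (median log2 change -0.87). Igf1r, the receptor of insulin-like growth factors, was at 815, 886, 806 and 803 in Sox2-guide and 2677, 2805, 2745 and 2265 in control-guide libraries. Fgf10, a mesenchymal ligand of epithelial growth, was at 169, 142, 209.9 and 161 with the Sox2 guide and 28.5, 20.4, 31.3 and 19.4 with the control guide, while the related ligand Fgf7 was lower, at 399 ± 31.7 in Sox2-guide and 1544 ± 129 in control-guide libraries (SD, n = 4 each). The IGF-binding protein list held large changes both ways, 4 higher and 4 lower of 10. Besides IGF-binding proteins it held Igf2bp1 and Igf2bp3, which bind RNA and were called higher, and the protease Htra1, called lower. Igfbp6 was at 558, 340.5, 453 and 422 in Sox2-guide and 8.13, 11.7, 6.26 and 3.24 in control-guide libraries. Igfbp2 was at 0, 0, 0 and 2.47 in Sox2-guide and 374, 309, 282 and 201 in control-guide libraries. Of 27 MAP kinase feedback and immediate early genes 6 were called higher and 10 lower (median -0.03, and 0.26 with quantile scaling). Etv4, an ETS factor induced by FGF signalling, and Dusp4, a MAP kinase phosphatase, were higher by log2 changes of 3.42 ± 0.19 and 2.76 ± 0.21, and Spry1 and Fos were lower, at -2.73 ± 0.29 and -2.61 ± 0.39. Of 23 TGF-beta ligands, receptors and response genes 4 were called higher and 15 lower (median -0.95). The ligand Tgfb2 was at 285, 207, 251 and 331 in Sox2-guide and 1547, 1484, 1734 and 1754 in control-guide libraries, while the receptor chains Tgfbr2 and Tgfbr3 were higher, with log2 changes of 0.68 ± 0.15 and 0.79 ± 0.19. For both receptor chains the groups overlapped.

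Of 17 targets of the YAP and TAZ coactivators 5 were called higher and 9 lower (median log2 change -0.50), and Ankrd1, an ankyrin repeat protein of stretched muscle, stood out with 8775, 10636, 8346 and 8748 normalised reads in Sox2-guide and 1443, 1329.6, 1261 and 990.2 in control-guide libraries. Of 17 Hedgehog and Notch pathway genes 2 were called higher and 11 lower (median -0.71). Jag1, a Notch ligand, was at 23.1, 20.03, 15.0 and 9.88 in Sox2-guide and 752, 615, 726 and 479 in control-guide libraries. The Hedgehog co-receptors Boc and Cdon fell, with log2 changes of -3.19 ± 0.21 and -1.84 ± 0.11, while the receptor and target Ptch1 and the target Foxf1 rose, by 1.29 ± 0.23 and 0.88 ± 0.12. Of 36 guidance genes 10 were called higher and 17 lower (median -0.49, and -0.12 over those with a mean of at least 50). Sema5a and Sema3a, semaphorins, rose by log2 changes of 2.59 ± 0.12 and 1.80 ± 0.10, and Slit2 and the netrin receptors Unc5b and Unc5c fell, with changes of -1.68 ± 0.13, -1.52 ± 0.12 and -4.11 ± 0.33.

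Transcripts of cell division were higher with the Sox2 guide. All 31 mitosis and cytokinesis genes were tested and 31 were called higher, with a median log2 change of 1.29, and for 29 the groups did not overlap. Birc5, survivin of the chromosomal passenger complex, was at 6829, 6153, 6865 and 7745 in Sox2-guide and 2138, 2088, 2112 and 2488 in control-guide libraries. Kif23, a kinesin of the midbody, was at 1723, 1722, 1555 and 1586 in Sox2-guide and 457, 432, 473 and 375 in control-guide libraries. Of 33 DNA replication genes 22 were called higher and 3 lower (median 0.43). Rrm2, a subunit of ribonucleotide reductase, was at 1838, 1424, 1327 and 1425 in Sox2-guide and 453, 419.9, 407 and 359 in control-guide libraries.

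Of 15 D cyclins, partner kinases and inhibitors 5 were called higher and 4 lower, or 33.3% and 26.7%, near the shares of 30.5% and 30.2% of all tested genes (median log2 change -0.14), and 6 were called lower without Sox2-guide replicate 1. Beside Ccnd1, its relative Ccnd2 was at 11170, 10927, 11628 and 11648 in Sox2-guide and 3773, 3776, 3859 and 4750.4 in control-guide libraries. Cdk6, the kinase that D cyclins bind, was at 4178, 3327, 3193 and 3527 in Sox2-guide and 691, 662, 819.9 and 722 in control-guide libraries (log2 change 2.29 ± 0.09, limma adjusted p = 5e-12). Cdkn1a, the inhibitor p21, was at 275, 668, 701 and 595 with the Sox2 guide and 6728, 7368, 6913 and 6999 with the control guide (log2 change -3.73 ± 0.20, limma adjusted p = 1.5e-10), its lowest value being that of Sox2-guide replicate 1. Cdkn1c, the inhibitor p57, was at 240.3, 194, 277 and 215 in Sox2-guide and 1799, 1898, 1615 and 1776 in control-guide libraries. Rb1, the retinoblastoma protein on which these kinases act, was lower too, at 112 ± 13.5 in Sox2-guide and 305 ± 43.5 in control-guide libraries (SD, n = 4 each). Of 25 targets of p53, Cdkn1a among them, 2 were called higher and 16 lower (median -1.18). Trp53inp1, a growth-restraining target, was at 113, 140.2, 202 and 151 in Sox2-guide and 1469.6, 1189.7, 1296 and 1239 in control-guide libraries. Btg2, an antiproliferative target, was at 406, 309, 337 and 326 in Sox2-guide and 1596, 1627, 1565 and 1657 in control-guide libraries. Mdm2, the ubiquitin ligase that limits p53, singled out after its value was seen, was at 1075 ± 149 in Sox2-guide and 3026 ± 208 in control-guide libraries (SD, n = 4 each). Plk2, a polo-like kinase, was higher, at 846 ± 59.9 in Sox2-guide and 240.0 ± 17.3 in control-guide libraries.

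**Figure D4:**
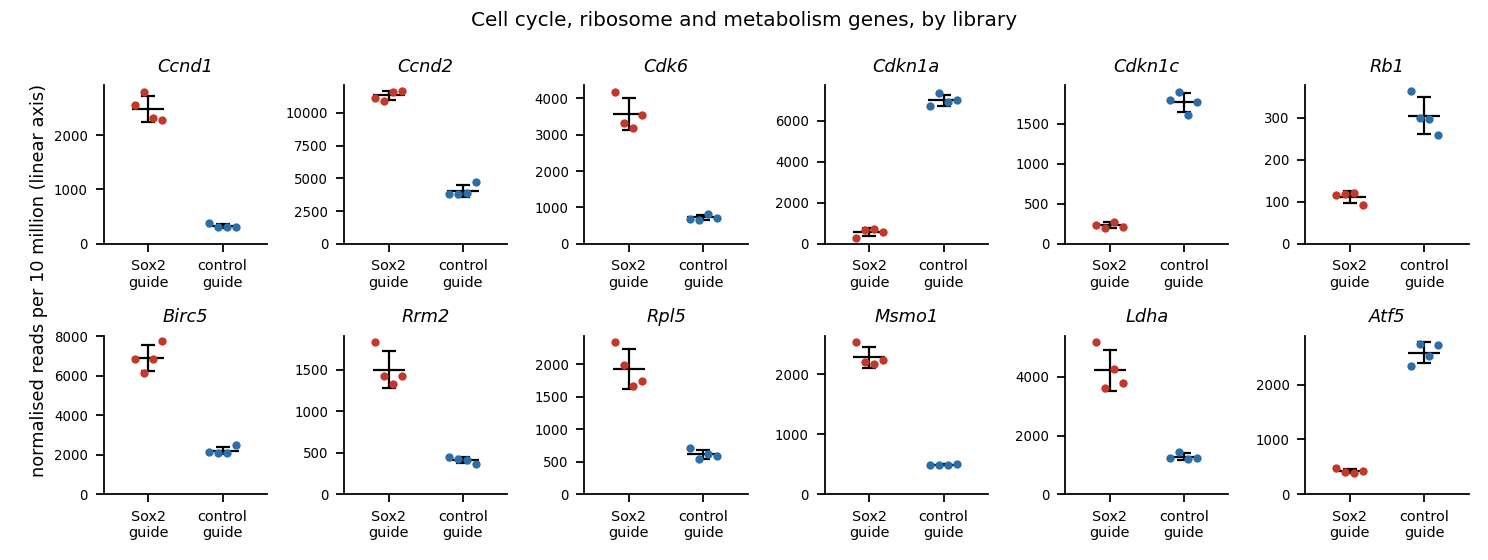
Normalised reads (linear axes from 0) of 12 cell cycle, ribosome and metabolism genes in the 4 Sox2-guide libraries (left, red) and the 4 control-guide libraries (right, blue); points are libraries, the long dash is the mean and the bars are the SD. Cdkn1a, Cdkn1c, Rb1 and Atf5 were lower with the Sox2 guide and the other 8 higher, with no overlap between the groups in any of them. All were picked from called genes, and 53.6% of all tested genes lacked overlap, so this is not a further result.

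Ribosomal protein genes were called higher as well, as were most nuclear-encoded genes of oxidative phosphorylation. Of 43 tested cytosolic ribosomal protein genes 43 were called higher (median log2 change 1.07), with Rpl5 at 2346, 1981, 1660.1 and 1736 in Sox2-guide and 709, 539, 617 and 582 in control-guide libraries. These genes have many pseudogene copies, so each value is uncertain. Their summed share of reads was 4.15 to 5.72% in Sox2-guide libraries, highest in replicate 1, and 2.17 to 2.42% in control-guide libraries. Of 32 nuclear-encoded oxidative phosphorylation genes 22 were called higher and 2 lower (median 0.38), with Atp5b, of ATP synthase, at 5901 ± 1121 in Sox2-guide and 2938 ± 168 in control-guide libraries (SD, n = 4 each). Of 9 mitochondrially encoded genes 2 were called higher and 3 lower (median -0.19), and of 11 nuclear noncoding RNAs 3 higher and 2 lower.

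Metabolic enzymes differed by pathway. Of 24 cholesterol synthesis genes 20 were called higher and 1 lower (median log2 change 1.45). Msmo1, a sterol demethylation enzyme, was at 2539.7, 2199, 2166 and 2233 in Sox2-guide and 482, 484, 488 and 505 in control-guide libraries (log2 change 2.22 ± 0.08, limma adjusted p = 5e-13). Hsd17b7, which also acts in sterol synthesis, was the 1 gene called lower, at 622 ± 57.7 in Sox2-guide and 821 ± 48.2 in control-guide libraries (SD, n = 4 each). Of 29 glycolysis and hypoxia genes 16 were called higher and 6 lower (median 0.70): the enzymes Ldha, Aldoa and Tpi1 rose by log2 changes of 1.70 ± 0.10, 1.56 ± 0.11 and 1.78 ± 0.13, while Adm, the vasodilator peptide adrenomedullin, was at 11.5, 6.68, 7.495 and 4.94 in Sox2-guide and 833, 828, 745 and 1003 in control-guide libraries. Of 22 NRF2 target genes 12 were called higher and 5 lower (median 0.60). The 3 smallest p-values among those higher were of pentose phosphate enzymes, Tkt at 1709, 1464, 1552 and 1272 in Sox2-guide and 437, 385, 463 and 498 in control-guide libraries, G6pdx at 871, 641, 622 and 610.0 in Sox2-guide and 126, 149, 166 and 191 in control-guide libraries, and Pgd with a log2 change of 1.32 ± 0.12. Slc7a11, the cystine carrier shared with the ATF4 response, was at 11.5, 15.6, 11.2 and 2.47 in Sox2-guide and 75.2, 93.3, 97.0 and 77.7 in control-guide libraries.

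Of 26 serine, one-carbon and ATF4 response genes 2 were called higher and 19 lower (median log2 change -0.64). Atf5, a stress-responsive transcription factor, was at 471, 403, 386 and 417 in Sox2-guide and 2336, 2741, 2522 and 2725 in control-guide libraries. Trib3, a pseudokinase induced by ATF4, was at 80.7, 51.2, 74.95 and 64.2 in Sox2-guide and 665, 735, 629 and 728 in control-guide libraries. Aldh1l2, the mitochondrial folate dehydrogenase, had a log2 change of -3.49 ± 0.14 (limma adjusted p = 3.1e-12). Mthfd1, the cytosolic folate enzyme, was higher, at 457 ± 78.9 in Sox2-guide and 198 ± 22.3 in control-guide libraries (SD, n = 4 each). Of 31 genes of protein folding and collagen processing in the endoplasmic reticulum 4 were called higher and 14 lower (median -0.24), with P4ha3, a prolyl hydroxylase of procollagen, at 26.9, 8.90, 15.0 and 14.8 in Sox2-guide and 341, 300.3, 329 and 298 in control-guide libraries. Of 31 lysosome and autophagy genes 10 were called higher and 12 lower (median -0.01).

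Of 45 tested interferon-stimulated genes 15 were called higher and 10 lower, or 33.3% and 22.2%, against 30.5% and 30.2% of all tested genes, and the median log2 change was 0.12. With quantile scaling, which set the median of all genes at 0.07, 11 were called higher and 13 lower. Rsad2, the antiviral enzyme viperin, was at 5687, 6131, 6982 and 7469 in Sox2-guide and 1968, 2003, 1818 and 1929 in control-guide libraries. Its neighbour Cmpk2 on chromosome 12 was at 1363, 1046, 986 and 1153 in Sox2-guide and 229.7, 189.5, 209.7 and 172 in control-guide libraries. Mx1, an antiviral GTPase, was at 167, 127, 176 and 158 in Sox2-guide and 874, 741, 751 and 741 in control-guide libraries. Oas3, an oligoadenylate synthetase on chromosome 5 singled out after its value was seen, was at 491 ± 85.9 in Sox2-guide and 10.4 ± 4.30 in control-guide libraries (SD, n = 4 each). Stat2, the signal transducer of interferon, fell, with a log2 change of -0.82 ± 0.08.

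Antigen presentation and chemokine genes were called in both directions, and complement genes in 1. Of 17 MHC class I presentation genes 5 were called higher and 9 lower (median log2 change -0.50, and -0.15 with quantile scaling). The immunoproteasome subunit Psmb8 was lower, at 383, 207, 202 and 195 in Sox2-guide and 768, 831, 607 and 679.5 in control-guide libraries, while another subunit, Psmb10, and the activator subunits Psme1 and Psme2 were higher, with log2 changes of 1.58 ± 0.16, 0.91 ± 0.10 and 1.29 ± 0.17. H2-Q7, which has near-identical copies and is uncertain, had a change of -2.18 ± 0.43. Of 17 chemokines and cytokines 7 were called higher and 6 lower (median -0.29). Ccl5, a T-cell and eosinophil attractant, was at 5377, 3625, 3995 and 4389 in Sox2-guide and 1716, 1525, 1662 and 1779.8 in control-guide libraries. Cxcl12, the most abundant of them, was at 11856, 10119, 9163 and 9719 with the Sox2 guide and 16664, 16122, 16035 and 15439 with the control guide (log2 change -0.66 ± 0.08, limma adjusted p = 2.7e-06). Cxcl5, a neutrophil attractant, was at 5.77, 2.23, 3.75 and 7.41 in Sox2-guide and 146, 137, 106 and 139 in control-guide libraries. Of 6 complement genes 0 were called higher and 5 lower (median -2.45), among them C1ra, a protease of the first complement complex, at 352, 251, 296 and 380.4 in Sox2-guide and 1258, 1131, 1111 and 1311 in control-guide libraries. Of 18 NF-kappaB subunits and feedback genes 4 were called higher and 8 lower (median -0.28), with Nfkbia, the inhibitor IkappaB alpha, lower by a log2 change of -0.91 ± 0.08. Of 12 prostaglandin genes 4 were called in each direction (median -0.42, and 0.25 over those with a mean of at least 50). Ptgs2, the inducible cyclooxygenase, was at 379 ± 117 in Sox2-guide and 211 ± 42.2 in control-guide libraries (SD, n = 4 each), and the groups overlapped. Ptges, a prostaglandin E synthase, had 0 reads in Sox2-guide and 40.7, 17.5, 12.5 and 9.71 normalised reads in control-guide libraries, at least 10.99-fold lower.

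Genes that record position in the body differed between the groups in many cases. Of 31 HOX genes 8 were called higher and 15 lower (median log2 change -0.42, and -0.03 over those with a mean of at least 50). Hoxc6 was at 9.61, 22.3, 15.0 and 17.3 in Sox2-guide and 2484, 2438, 2469 and 2219.9 in control-guide libraries. Hoxc8 was at 1.92, 0, 0 and 2.47 in Sox2-guide and 1102, 1140.1, 1023 and 977 in control-guide libraries. Both lie within the annotated span of Hoxc5, so their reads are uncertain. All 8 tested genes of the Hoxc cluster were called lower, and the 8 HOX genes called higher lay in the other clusters. Hoxd13, the most posterior gene of its cluster, was at 57.7, 80.1, 52.5 and 54.3 in Sox2-guide and 4.07, 0, 0 and 0 in control-guide libraries. Hoxa11 was at 465, 372, 423 and 432 in Sox2-guide and 144, 184, 128 and 133 in control-guide libraries. Of 33 regional transcription factors of mesenchyme 10 were called higher and 18 lower (median -0.45). Prrx1, a homeobox factor of limb and craniofacial mesenchyme, was at 463, 629.8, 716 and 647 in Sox2-guide and 11416, 10564, 10737 and 10122 in control-guide libraries. Shox2, a factor of proximal limb, was at 856, 948, 1004 and 1079 in Sox2-guide and 6106, 6249, 6087 and 6226 in control-guide libraries. Osr2 fell, with a log2 change of -3.21 ± 0.14, and Meis2 rose by 1.17 ± 0.07. Hand2 and Gata6, factors of heart and gut mesenchyme singled out after their values were seen, moved apart. Hand2 was at 1.04 ± 1.20 in Sox2-guide and 650.2 ± 43.7 in control-guide libraries. Gata6 was at 132 ± 29.1 in Sox2-guide and 4.20 ± 3.003 in control-guide libraries (SD, n = 4 each).

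Imprinted genes, transcribed from 1 parental copy, were among the lists with the lowest medians. Of 16 tested, 3 were called higher and 10 lower (median log2 change -1.59). Igf2r, the receptor that removes insulin-like growth factor 2, was at 3.85, 4.45, 3.75 and 2.47 in Sox2-guide and 1331, 1268, 1336 and 961 in control-guide libraries (log2 change -8.05 ± 0.17, limma adjusted p = 2.8e-15). It overlaps the antisense RNA Airn, and without stranded counting being stated the reads of both cannot be told apart. Mest was at 1.92, 6.68, 7.495 and 4.94 in Sox2-guide and 419, 426, 419 and 272 in control-guide libraries. Ndn, necdin, was higher, at 71.1, 53.4, 67.5 and 64.2 in Sox2-guide and 0, 0, 0 and 3.24 in control-guide libraries. Of 25 polycomb and DNA methylation regulators 4 were called higher and 12 lower (median -0.48). Tet2, an enzyme that oxidises methylcytosine, was at 183, 258, 232 and 259 in Sox2-guide and 989.9, 843, 895 and 819 in control-guide libraries, and Uhrf1, which brings the maintenance methyltransferase to replicated DNA, rose by a log2 change of 1.26 ± 0.12.

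Of 17 markers that divide fibroblasts into subsets 9 were called higher and 7 lower (median log2 change 0.30). Ly6a, known as Sca-1, was at 8327, 5884, 6487 and 7204 in Sox2-guide and 152, 81.6, 128 and 93.8 in control-guide libraries (log2 change 5.95 ± 0.16, limma adjusted p = 3.5e-14). Ly6c1 was at 2411, 1700.3, 1818 and 1751 in Sox2-guide and 12.2, 8.75, 15.6 and 6.47 in control-guide libraries. Both belong to a family of near-identical copies and are uncertain. Eng, the TGF-beta co-receptor endoglin, was at 431, 347, 468 and 299 in Sox2-guide and 14.2, 20.4, 15.6 and 16.2 in control-guide libraries. Pdgfra, also in this list, was among the 7 called lower, with a log2 change of -5.10 ± 0.16.

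Markers of other cell types varied from no reads to high levels. Of 15 epithelial markers 10 were in the table, 6 of these had at most 3 reads over the 8 libraries, and their summed level was 15.0 to 36.5 normalised reads in Sox2-guide and 0 to 18.3 in control-guide libraries. Krt8 and Vil1 had 0 reads. Of 19 keratin and cornified envelope genes 18 were in the table, and their sum, 2947 to 4143 in Sox2-guide and 102 to 147 in control-guide libraries, followed Sprr1a, while Krt5 and Trp63 had at most 3 reads each. Only 6 were tested, with 2 called higher, 1 lower and 3 not called. Of the 12 mesothelial markers 10 were in the table, with sums of 311 to 523 in Sox2-guide and 43.8 to 58.3 in control-guide libraries. Only 3 were tested, with 2 called higher and 1 lower. Msln, mesothelin, was at 479, 323, 345 and 284 in Sox2-guide and 0, 0, 3.13 and 0 in control-guide libraries, while Upk3b and Lrrn4 had at most 3 reads each. Pericyte markers, 6 of 9 in the table, summed to 66.8 to 88.9 with the Sox2 guide and 376 to 430.4 with the control guide, and 3 of the 4 tested were called lower. Endothelial markers, 9 of 14 in the table, summed to 371 to 459 with the Sox2 guide and 274 to 356 with the control guide. Immune cell markers, 9 of 15, summed to 74.9 to 121 with the Sox2 guide and 59.5 to 90.6 with the control guide. Markers of interstitial cells of Cajal, 6 of 6, summed to 726 to 1040.1 with the Sox2 guide and 256 to 362 with the control guide. Of the 3 tested, 1 was called higher and 1 lower, and the median log2 change was -0.89, so the sum does not stand for the list. Markers of enteric glia and neurons, 13 of 13, summed to 549.7 to 627 with the Sox2 guide and 936 to 1139 with the control guide, and adipocyte markers, 6 of 9, to 176 to 259 with the Sox2 guide and 168 to 216 with the control guide. Among the 3 tested immune markers 2 were called higher and 1 lower. Those higher were Cd68 and Cd14, found in macrophages. Cd68 was at 35.9 ± 10.6 in Sox2-guide and 9.54 ± 6.10 in control-guide libraries, and Cd14 at 37.8 ± 13.1 in Sox2-guide and 6.57 ± 4.41 in control-guide libraries (SD, n = 4 each). Kdr, a vascular endothelial growth factor receptor in the endothelial list, was called higher too, at 84.6, 95.7, 93.7 and 114 in Sox2-guide and 16.3, 14.6, 18.8 and 9.71 in control-guide libraries. It was the 1 called of 3 tested endothelial markers, and the other 2 were not called. Ptprc, Cdh5, Kit and Sox10, which define immune, endothelial, Cajal and glial cells, had 0 reads in all 8 libraries. The part of the other markers in the changes above was not tested.

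The changes were unevenly spread over the chromosomes. On chromosome 1 the median log2 change of 834 tested genes was -0.53, with 12.6% called higher and 55.8% lower, against 30.5% and 30.2% of all tested genes, and the medians of all 10 bins of 20 Mb lay between -0.71 and -0.39. Chromosomes 3, 16 and 7 had medians of -0.45, -0.33 and -0.31. On the X chromosome the median of 417 genes was 0.59, with 56.6% called higher and 16.3% lower, and on chromosome 14 it was 0.35. Each of the 4 Sox2-guide libraries showed these shifts, from -0.60 to -0.51 on chromosome 1 and from 0.51 to 0.64 on the X chromosome, while the medians of single control-guide libraries stayed within -0.05 and 0.06 of the group mean on these 6 chromosomes. On chromosome 7 Sox2-guide replicate 1 stood at -0.11 and the other 3 between -0.36 and -0.34. Control-guide minus WT-labelled medians were 0.55, 0.40, 0.03, 0.42, -0.20 and -0.42 on chromosomes 1, 3, 16, 7, X and 14. In the same order, Sox2-guide minus WT-labelled medians were -0.07, -0.19, -0.33, 0.09, 0.30 and -0.14. Both sets of medians share libraries with the comparison. Xist, the RNA that silences 1 X chromosome, was lower, at 4251, 6011, 5528 and 5572 in Sox2-guide and 8647, 8488, 10011 and 8242 in control-guide libraries (log2 change -0.74 ± 0.11, limma adjusted p = 1.8e-05).

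On chromosome 12 the difference lay in the distal part. From 95 Mb to its end, a boundary drawn after the values were seen, 93 of 107 tested genes had a log2 change above 0, 82 were called higher and 7 lower, and the median was 1.17. In the 5 bins of 5 Mb there, the medians lay between 1.06 and 1.41, with 7 to 42 genes in a bin, 3 of the bins holding under 20. Over the 309 tested genes before that point the median was 0.05, with 89 called higher and 82 lower. Hsp90aa1, the interferon-stimulated gene Ifi27 and the imprinted gene Dlk1 lie in the distal stretch, with log2 changes of 2.12 ± 0.09, 1.92 ± 0.11 and 0.44 ± 0.11. The same genes had a median log2 difference of 0.18 between Sox2-guide and WT-labelled libraries and of -0.87 between control-guide and WT-labelled libraries, and these differences share the libraries of the comparison above. What bears on these regional differences was not tested.

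**Figure D5:**
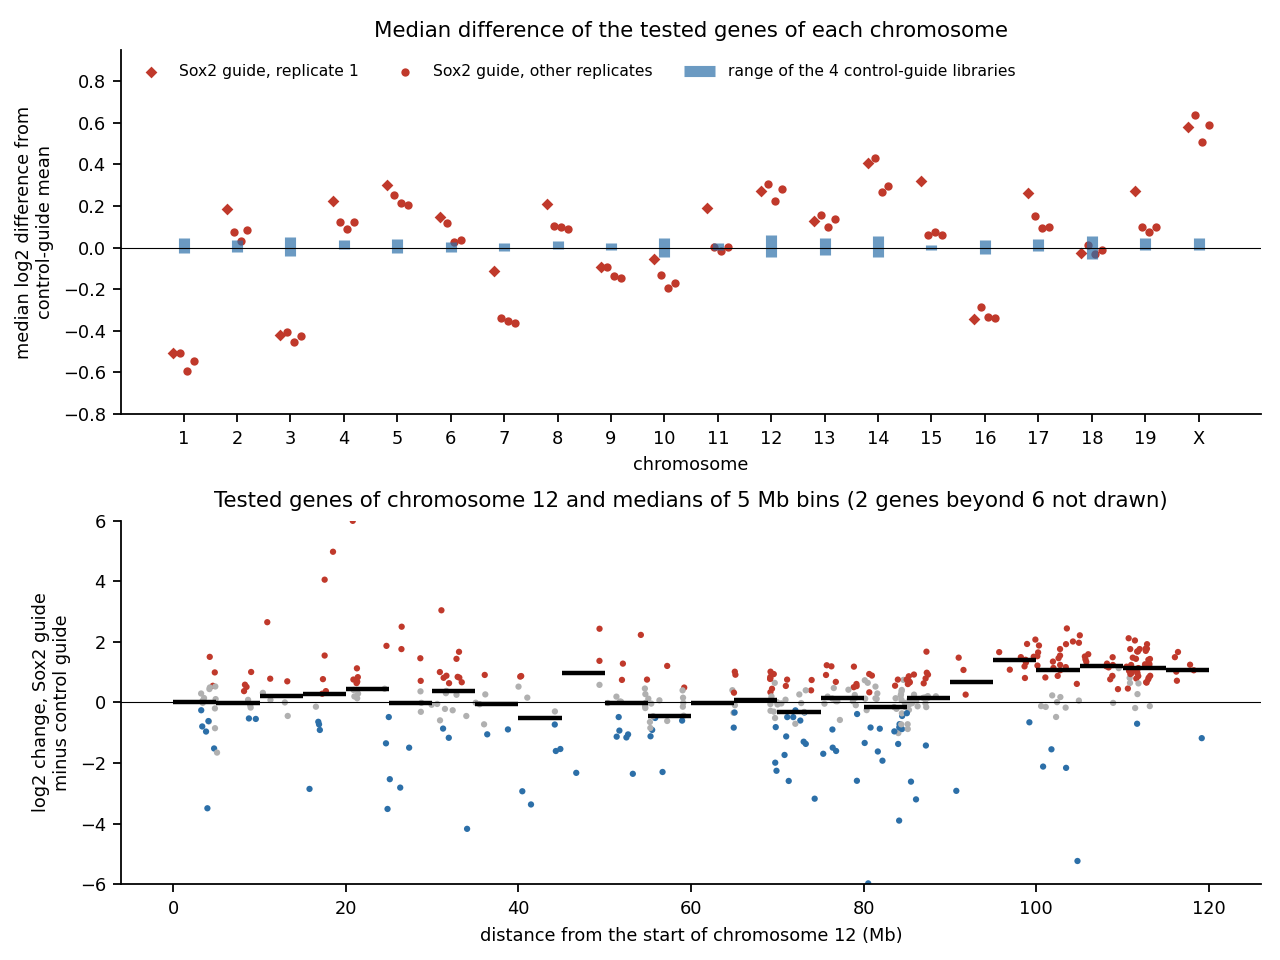
Top, the median log2 difference of the tested genes of each chromosome from the control-guide mean, for each Sox2-guide library (red; diamond for replicate 1) and as the range of the control-guide libraries (blue bars). Bottom, the log2 change of each tested gene of chromosome 12 by distance from the chromosome's start, with medians of 5 Mb bins as black lines; the bins beyond 95 Mb lie above 1, with an overall median of 1.17.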

How the data were processed

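RNA was measured by QuantSeq 3' sequencing in 12 libraries, 4 for each of 3 groups taken from the labels. In the 1 table the authors deposited, values are a normalised signal in which each library sums to 10000000. Per the submitters' processing notes the build was GRCm38. Not given in the sources used here are the aligner, the counter, the annotation, the strand setting and any molecular identifiers. Genes were named and placed by matching their Ensembl gene IDs to GENCODE vM21, with 23002 of 23106 matched and 104 unmatched.

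Steps of the deposited values gave whole reads for 100% of values within 0.01 read, 2.67 to 5.20 M reads a library in the comparison. Floors of 3 reads cover counting error only. Genes with a mean of at least 10 over all 12 libraries were tested on log2(value + 1) with limma 3.58.1 in R 4.3.3 (with a mean-variance trend), with all 12 libraries in the fit, no block and Benjamini-Hochberg adjustment at 0.05. Fold changes on this scale understate those of low genes. edgeR 4.0.16 on the recovered reads called 8058 genes, and DESeq2 1.42.0 was a further alternative. The Prkcz, Sox2, Sfrp1 and Sfrp2 levels had an exact permutation test. The fit was also run on simulated data with few changed genes and the same spread in every library. The real libraries differ in both, so that run does not check the counts reported here.

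The gene lists and members were chosen with earlier results of these data known. Named genes were Prkcz, Sox2, Sfrp1 and Sfrp2, the 12 largest log2 increases and decreases and the 8 largest in normalised reads among called genes of mean at least 50 whose groups did not overlap, up to 3 called members of each list and direction by smallest p, tested SOX and sex-linked genes, and tested genes within 1 Mb of Sox2. Predicted genes, Rik clones and ribosomal pseudogenes were left out. The text gives 169 of the 274 genes so chosen.

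Reads of genes that overlap another on the same strand (Cdon, Col1a2, Eng, Hmga2, Hoxc6, Hoxc8, Prrx1, Sema3a, Slit2, Sox2, Sox2ot, Tgfbr3 and Timp2) or the other strand (Aldh1l2, Asb5, Atf5, Ccdc39, Ccnd1, Dnajc19, Fxr1, G6pdx, Hand2, Hoxa11, Igf2r, Mest, Psme1, Rb1, Rpl5, Rps4l, Sfrp2, Shox2, Tpi1 and Ttc14) are uncertain. So are those of ribosomal protein, Ly6 and H2 genes, which have near-identical copies. Promoters and their coordinates come from RefSeq, GRCm38.p6. The sequences of the guides were not used here.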

Additional observations from a re-analysis of the deposited data

Results flagged for a closer look

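In each group of 4 libraries, a library was noted when its gap to the nearest other, divided by the range of the group, was above Dixon's critical value of 0.829. Of 368 groups of values examined, 45 held such a library, or 12.2%, where chance gives about 1 in 20 if values are normally distributed. That rate does not hold for groups with reads in only 1 library, which exceed the critical value whatever the count. The groups also come from the same libraries and are not independent. The share of 12.2% therefore cannot be read as an excess over chance. By library, Sox2-guide replicate 1 gave 10 of the 45 and control-guide replicate 4 gave 13, and the other 6 libraries 2 to 7 each. Values are normalised reads of the library and then the range of the other 3 of its group.

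In Sox2-guide replicate 1, mitochondrial transcripts took 4.29% of reads, against 9.39 to 10.3% in the other 3, and ribosomal protein transcripts 5.72%, against 4.15 to 4.35%. Sox2-guide replicate 1 was above the rest of its group for Col6a2 at 159.6 against 106 to 114, G6pdx at 871 against 610.0 to 641, Lor at 183 against 138 to 145, Ly6c1 at 2411 against 1700.3 to 1818, Psmb8 at 383 against 195 to 207 and Sema5a at 867 against 746 to 766. Sox2-guide replicate 2 was above the rest of its group for Igf1r at 886 against 803 to 815. Sox2-guide replicate 3 was above the rest of its group for Prkcz at 52.5 against 27.2 to 30.8. Sox2-guide replicate 3 was below the rest of its group for Il33 at 105 against 151 to 159.6. Sox2-guide replicate 4 was below the rest of its group for Gm42418 at 227207 against 306392 to 315415 and Rb1 at 91.4 against 117 to 119.9. In single Sox2-guide libraries, 1 or 2 reads stood against 0 in the other 3, with St8sia2 at 1.92 and Thy1 at 1.92 in replicate 1, then Igsf10 at 2.23 and Lmod1 at 4.45 in replicate 2, then Rspo3 at 3.75 in replicate 3, then Igfbp2 at 2.47 and Itga8 at 2.47 in replicate 4.

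Control-guide replicate 1 was above the rest of its group for Ccnd1 at 380.1 against 309.8 to 314 and Mx1 at 874 against 741 to 751. Control-guide replicate 1 was below the rest of its group for Gm42418 at 270219.5 against 321304 to 329285. Control-guide replicate 2 was above the rest of its group for Ldha at 1438 against 1214 to 1246. Control-guide replicate 2 was below the rest of its group for Unc5c at 137 against 162 to 166. Control-guide replicate 3 was below the rest of its group for Sox5 at 37.5 against 65.0 to 68.0 and Tpi1 at 616 against 764 to 778. Control-guide replicate 4 was above the rest of its group for Airn at 243 against 194 to 201, Birc5 at 2488 against 2088 to 2138, Ccnd2 at 4750.4 against 3773 to 3859, Hsp90aa1 at 3945 against 3433 to 3461, Hsp90ab1 at 15526 against 11967 to 12515, Myl9 at 5919 against 4679.9 to 4775 and Sprr1a at 9.71 against 5.83 to 6.26. Control-guide replicate 4 was below the rest of its group for Acta2 at 23742 against 26057 to 26335, Cd14 at 0 against 8.13 to 9.39, Igsf10 at 1712 against 2031 to 2044 and Mest at 272 against 419 to 426. In single control-guide libraries, 1 or 2 reads stood against 0 in the other 3, with Hoxd13 at 4.07, Il33 at 2.03, Lor at 2.03 and Pitx1 at 2.03 in replicate 1, then Msln at 3.13 in replicate 3, then Ccl8 at 3.24 and Ndn at 3.24 in replicate 4.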

How the results depend on the processing

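Every alternative kept the count of called genes within 1.5 times the 7689 reported: 7625 and 7848 with pseudocounts of 0.5 and 5, 8394 without the level filter, 6464 with a mean of at least 50, 7716 with quantile scaling, 7729 with TMM, 7711 without mitochondrial genes and Gm42418, 7370 from the 8 libraries alone, 8058 with edgeR and 7558 with DESeq2. Leaving out 1 library gave 7103 to 7816, with 3596 to 3815 higher and 3492 to 4001 lower. The replicate block gave 7693. Same-numbered libraries of both groups had deviations that correlated by 0.06, 0.03, -0.02 and 0.13, and libraries of unlike number by -0.22 to 0.13. With so few libraries these values cannot tell whether the numbers pair the libraries. Without Sox2-guide replicate 1 the mean log2 difference of Prkcz was 0.78 with an exact permutation p of 0.114. Of 180 genes named, 0 reversed under any alternative and 6 had another call under at least 1 (Axin2, Col1a2, Kremen1, Nes, Prkcz and Sox4). Among list medians these turned sign: IGF-binding proteins, 0.0112 with a pseudocount of 5; prostaglandin genes, 0.2495, and markers of cells of Cajal, 1.838, with the stricter filter; epithelial markers, -0.463 with edgeR; enteric glia markers, 0.0042 with quantile scaling; MAP kinase feedback genes, 0.26, and chemokines, 0.13, with quantile scaling, and both also above 0 with the stricter filter; mitochondrially encoded genes, 0.0255 without Sox2-guide replicate 1; and nuclear noncoding RNAs, -0.0214 without mitochondrial genes and Gm42418. Quantile scaling put the median of chromosome 9 at 0.0039, against -0.12, and the medians of chromosomes 1, 3, 7, 12, 14, 16 and X at -0.46, -0.37, -0.18, 0.42, 0.47, -0.24 and 0.65. The stricter filter gave -0.46, -0.35 and 0.35 on chromosomes 1, 3 and 12. The cause was not tested. Depth limits values of a few reads, where 3 reads are 5.77 to 11.2 normalised reads of 1 library.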
